A study of Mus musculus with 11 samples.

Results

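The 8 genes examined here encode the light chain of MHC class I (B2m), 2 class I heavy chains (H2-K1 and H2-D1), 3 chains of MHC class II (H2-Aa, H2-Ab1 and H2-Eb1), the invariant chain that escorts class II (Cd74) and the class II transactivator (Ciita). They were picked out by gene symbol, and all 8 were found among the 31053 genes of the count matrices. Their raw UMI counts were read in nuclei of frozen cortex from 11 mice, 1 library per mouse. Reads that share a UMI, a random tag added at capture, were counted once, so a count is a number of RNA molecules.

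The mice formed 4 genotype groups. Non-transgenic mice (Ikbkb+/+, n = 4, aged 9.8 to 10.85 months) had intact Ikbkb, which encodes IKKβ, a kinase that activates NF-κB. P301S mice (Ikbkb+/+;P301S+, n = 3, 9.15 to 10.75 months) also carried a human tau transgene with the P301S mutation. Knockout P301S mice (Ikbkb-/-;P301S+, n = 2, 8.39 to 9.15 months) had lost Ikbkb in cells that express Cx3cr1, and active IKKβ P301S mice (IkbkbCA;P301S+, n = 2, 9.8 to 10.85 months) made a constitutively active IKKβ in those cells. In both, the switch was a tamoxifen-inducible Cre recombinase inserted in 1 copy of Cx3cr1, a gene that microglia and other macrophages use, so these mice had only 1 working copy of it. By the study's methods, the mice with intact Ikbkb carried the floxed or the silent active allele without Cre, and tamoxifen was given to every genotype. The titles placed 6 mice in the floxed Ikbkb line and 5 in the active IKKβ line. The knockout mice were all of the first line, the active IKKβ mice all of the second, and of the P301S mice only replicate 3 came from the active IKKβ line. The labels give the sex as female, whereas the study's methods describe male mice for RNA sequencing, and which is right was not tested. The background strain, and with it the MHC haplotype, is not given in the sources used here.

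MHC class I molecules hold short peptides from proteins made inside a cell and show them to CD8 T cells. The heavy chain reaches the surface only when paired with β2-microglobulin, the product of B2m. MHC class II molecules show peptides from engulfed material to CD4 T cells and are made mainly by professional antigen-presenting cells, where Cd74 blocks the peptide groove until the molecule reaches the endosome. Ciita is the master switch of the class II genes, and Nlrc5, a protein of the same family, does the same for class I. Both act through a shared promoter module of X and Y boxes, next to which class I promoters carry an NF-κB site (enhancer A) and an interferon response element. In healthy brain, microglia make little of either class, and macrophages at the borders of the brain make more class II.

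The promoters are shown because the study changed the kinase that activates NF-κB. RefSeq windows on GRCm38.p6, the build of mm10, were matched for 5 of the 8 members. H2-Ab1, Ciita and Cd74 had none here. Each line below gives bases upstream of the RefSeq start, 5′ to 3′ on the strand of the gene, with the matched motifs in capitals. B2m lies at chr2:122147437-122147686 on the plus strand, H2-K1 at chr17:34000348-34000597 on the minus strand (1 of 2 windows for this gene), H2-D1 at chr17:35262923-35262952 on the plus strand (30 bases around the NF-κB match), H2-Aa at chr17:34287824-34288073 on the minus strand and H2-Eb1 at chr17:34305617-34305866 on the plus strand.
B2m: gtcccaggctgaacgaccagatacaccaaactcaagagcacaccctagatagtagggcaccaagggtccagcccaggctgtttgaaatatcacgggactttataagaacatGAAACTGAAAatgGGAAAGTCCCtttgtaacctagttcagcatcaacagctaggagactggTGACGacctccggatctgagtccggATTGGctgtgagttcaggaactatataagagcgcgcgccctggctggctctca
H2-K1: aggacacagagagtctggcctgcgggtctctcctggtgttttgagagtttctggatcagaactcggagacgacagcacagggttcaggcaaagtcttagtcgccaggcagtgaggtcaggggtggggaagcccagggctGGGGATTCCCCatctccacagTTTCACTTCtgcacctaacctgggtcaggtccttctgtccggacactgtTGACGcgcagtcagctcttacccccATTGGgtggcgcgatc
H2-D1: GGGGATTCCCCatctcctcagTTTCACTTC
H2-Aa: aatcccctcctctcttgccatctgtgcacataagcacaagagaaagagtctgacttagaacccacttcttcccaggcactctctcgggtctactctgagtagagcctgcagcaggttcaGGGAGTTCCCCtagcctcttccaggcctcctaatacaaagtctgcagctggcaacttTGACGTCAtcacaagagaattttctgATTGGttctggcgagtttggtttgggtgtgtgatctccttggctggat
H2-Eb1: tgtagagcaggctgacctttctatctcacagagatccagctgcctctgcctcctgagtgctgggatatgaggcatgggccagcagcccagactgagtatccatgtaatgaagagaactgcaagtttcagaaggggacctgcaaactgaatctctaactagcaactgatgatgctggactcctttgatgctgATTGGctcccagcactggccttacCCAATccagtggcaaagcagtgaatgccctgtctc

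The letters searched for on both strands were the NF-κB consensus, an interferon response element in 2 spellings (GAAA, any 2 bases, GAAA, and TTTCACTTC), the core of the X2 box (TGACG) and the Y box (ATTGG). Counting from -1 at the base before the start, the NF-κB consensus was found in 4 of the 5 windows, at -126 to -117 in B2m, -111 to -101 in H2-K1, -171 to -161 in H2-D1 and -131 to -121 in H2-Aa. In H2-K1, H2-D1 and H2-Aa these spans hold matches on both strands that overlap each other. Of the 32851 windows of 250 bases for all genes, 3.9% held the NF-κB consensus. The first spelling was found in B2m (2.98% of all windows), and TTTCACTTC in H2-K1 and H2-D1 (0.402%). TGACG was found in B2m, H2-K1, H2-D1 and H2-Aa (17.8%), where in H2-Aa the matches on the 2 strands overlap, and ATTGG in all 5 (33.8%). For H2-D1 the TGACG and ATTGG matches lie outside the bases printed. These are matches of letters, and no binding was measured.

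In mm10 coordinates B2m (ENSMUSG00000060802) lies on chromosome 2 at 122147686 to 122153083. The class I heavy chains and the class II chains lie in the MHC on chromosome 17, with H2-K1 (ENSMUSG00000061232) at 33996017 to 34000347, H2-Ab1 (ENSMUSG00000073421) at 34257689 to 34269419, H2-Aa (ENSMUSG00000036594) at 34282744 to 34287823, H2-Eb1 (ENSMUSG00000060586) at 34305867 to 34316674 and H2-D1 (ENSMUSG00000073411) at 35262730 to 35267499. Cd74 (ENSMUSG00000024610) lies on chromosome 18 at 60803848 to 60812652 and Ciita (ENSMUSG00000022504) on chromosome 16 at 10480059 to 10528418. All 8 are annotated as protein coding, and the counts cover exons and introns of the whole gene. Patl2 overlaps B2m and Gm20513 overlaps H2-Eb1 in the annotation, so that reads of these pairs may be shared.

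Over all libraries, 103065 of 114118 barcodes were used after limits on genes and mitochondrial counts and after the removal of called doublets. Libraries held 72007219 to 93205362 UMIs. The used barcodes held 101751 different barcode sequences, of which 1302 (1.28%) appeared in more than 1 library. Nuclei were grouped without the 8 members or any antigen presentation gene, so that no cell type rests on them. The microglia-like cluster held 4379 nuclei, 192 to 723 per mouse, with a median of 2080 UMIs per nucleus, and all 10 microglia markers were detected in it. Striatal projection neuron-like nuclei (9752) were also found in this cortical tissue. Ikbkb, the targeted gene, had 154.5, 124, 139 and 134 UMIs per 1000000 UMIs of the type (CPM) in microglia-like nuclei of the non-transgenic mice, 145, 135 and 139 among P301S mice, 110.0 and 118 among knockout P301S mice, and 163 and 148.5 among active IKKβ P301S mice. The knockout mice had the lowest values. Reads from its exons and introns are summed into 1 count per gene, and a missing exon cannot be seen in that sum.

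Class I was highest in endothelial-like and microglia-like nuclei and low in neurons. B2m averaged 149.6 ± 46.1 CPM in endothelial-like nuclei (SD, n = 7 mice with at least 20 such nuclei) and 103 ± 45.8 CPM in microglia-like nuclei (n = 11). Pericyte or mural-like nuclei followed with 15.8 ± 10.4 CPM (n = 10) and fibroblast-like nuclei with 15.6 ± 11.1 CPM (n = 10), a pair that did not differ beyond its spread. The remaining types averaged 1.25 (striatal projection neurons) to 6.33 CPM (oligodendrocyte precursors) of B2m. H2-K1 averaged 204 ± 100.7 CPM in endothelial-like and 63.4 ± 43.4 CPM in microglia-like nuclei, then 25.6 ± 8.82 in fibroblast-like, 20.7 ± 10.0 in mural-like and 18.3 ± 7.06 CPM in astrocyte-like nuclei. H2-D1 averaged 198 ± 59.7 CPM in endothelial-like and 57.8 ± 40.5 CPM in microglia-like nuclei. The heavy chains ranked the remaining types differently. H2-K1 was at 18.3 CPM in astrocyte-like and 0.966 ± 0.195 CPM in excitatory neuron-like nuclei, whereas H2-D1 stood at 4.64 ± 2.23 CPM in the first and 4.10 ± 1.05 CPM in the second (n = 11), within the spread of each. The study's reads come from the 3′ end of transcripts, and H2-K1, H2-D1 and the H2-Q genes are related genes of similar sequence. Some of their reads could be counted for the wrong gene, which was not tested, so their counts are uncertain in that respect.

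Each difference between microglia and another type was tested within mice by exact sign flips on log2(CPM + 1), two-sided, with p-values adjusted over all genes and types. Of 80 combinations of a member and a type, 56 were higher in microglia-like nuclei and 3 were lower. Over all genes and types tested, 29.9% were higher and 18.1% lower. With 11 mice the adjusted p of a member higher in every mouse was 0.00383. B2m, H2-K1 and H2-D1 were higher in microglia than in astrocytes, oligodendrocytes, their precursors and all 3 neuron types in 11 of 11 mice. The 3 lower combinations were the same class I genes against endothelial-like nuclei, lower in microglia in 7 of 7 mice (log2 differences of -0.70, -1.94 and -2.22, exact adjusted p = 0.0340). With the ependymal or choroid plexus-like type, found in 4 mice, the smallest p was 0.125 and no call was possible.

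Class II was seen in few nuclei. Cd74 averaged 22.6 ± 14.6 CPM in microglia-like nuclei (n = 11), 9.07 ± 6.56 CPM in fibroblast-like nuclei (n = 10) and 2.11 ± 4.32 CPM in endothelial-like nuclei (n = 7, from 2 UMIs), and at most 0.307 CPM in any of the other types. H2-Aa, H2-Ab1 and H2-Eb1 averaged 7.53 ± 6.03, 7.94 ± 7.68 and 7.85 ± 5.78 CPM in microglia-like nuclei and 5.43 ± 5.93, 6.29 ± 7.07 and 3.86 ± 3.48 CPM in fibroblast-like nuclei. Their differences between these types did not pass the test (exact adjusted p = 0.105, 0.531 and 0.0561). In neurons and glia each class II chain was at 0.235 CPM or less.

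Ciita UMIs were found in neuron-like as well as in microglia-like nuclei. Ciita averaged 5.08 ± 5.10 CPM in microglia-like nuclei, but 3.58 ± 0.749 CPM in inhibitory, 2.83 ± 0.804 CPM in excitatory and 2.38 ± 0.988 CPM in striatal projection neuron-like nuclei, where the class II chains were close to 0. None of the differences in Ciita between microglia and these neurons passed the test (exact adjusted p = 0.857, 0.781 and 0.531). At an equal depth of 1000 UMIs per nucleus, 0.346% of inhibitory neuron-like nuclei held a Ciita UMI (95% exact interval 0.255 to 0.458%), against 0.436% of microglia-like nuclei (0.263 to 0.68%), 0.154% of astrocyte-like nuclei (0.0737 to 0.282%) and 0.0815% of oligodendrocyte-like nuclei (0.0456 to 0.134%). Before thinning the shares were 2.98%, 0.891%, 0.722% and 0.216%, at median depths of 7866, 2080, 4309 and 2393 UMIs. Markers of one type were also counted in others: the 6 excitatory neuron markers summed to 1789 CPM in their own type and 309 CPM in microglia-like nuclei, the 6 inhibitory neuron markers to 5585 and 554 CPM, and the 10 microglia markers to 9293 CPM in microglia-like and 33.1 CPM in excitatory neuron-like nuclei. No background was subtracted, and the part of free RNA in these low Ciita levels was not tested. At the same equal depth a B2m UMI was held by 10.9% of microglia-like nuclei (9.95 to 11.8%), 12.1% of endothelial-like nuclei (9.03 to 15.9%) and 0.425% of excitatory neuron-like nuclei (0.358 to 0.5%). Intervals cover counting error only.

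**Figure D1:**
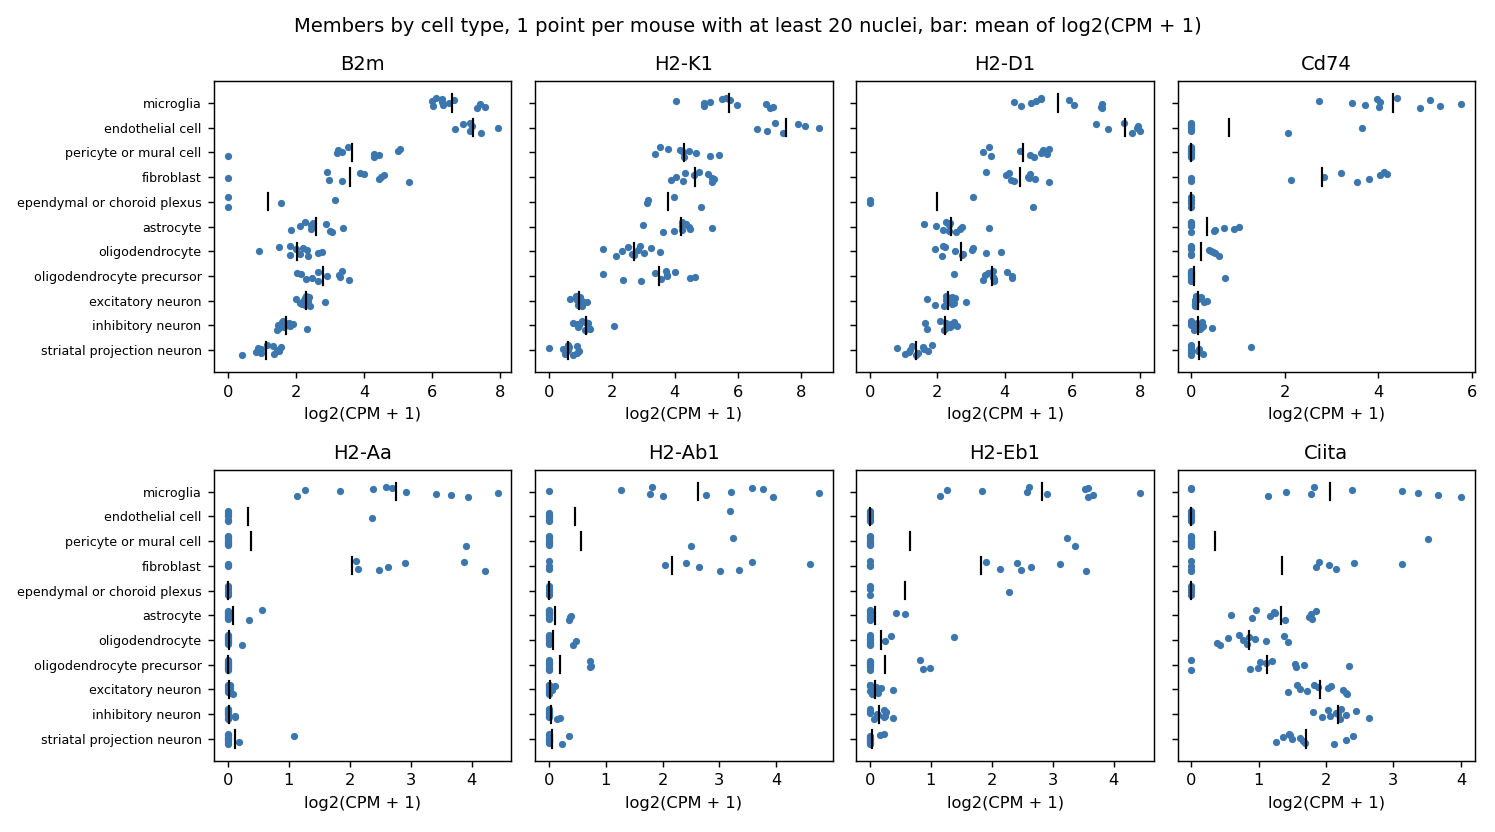
Levels of the 8 members in 11 cell types on a log2(CPM + 1) axis, with 1 point per mouse that had at least 20 nuclei of the type and a bar at the mean of the points. Class I lies furthest right in endothelial-like and microglia-like nuclei, class II in microglia-like and fibroblast-like nuclei, and Ciita is at low levels in the neuron types as well.

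In microglia the class I genes were highest in both active IKKβ P301S mice and in 1 of the 3 P301S mice. B2m was measured at 68.4, 76.7, 98.9 and 62.1 CPM among non-transgenic mice, 77.8, 88.8 and 168 among P301S mice, 79.3 and 64.1 among knockout P301S mice, and 188 and 159 among active IKKβ P301S mice. H2-K1 stood at 48.1, 43.9, 52.6 and 15.5 CPM among non-transgenic mice, 33.7, 29.6 and 117 among P301S mice, 61.5 and 29.1 among knockout P301S mice, and 138 and 128 among active IKKβ P301S mice. H2-D1 stood at 32.9, 32.9, 58.9 and 29.6 CPM among non-transgenic mice, 18.2, 26.3 and 117 among P301S mice, 64.7 and 21.4 among knockout P301S mice, and 116 and 118 among active IKKβ P301S mice. For all 3 genes the active IKKβ mice lay above every non-transgenic mouse, where 10.2% of all genes did so. Against the P301S mice only H2-K1 was without overlap (12% of all genes), since P301S replicate 3 reached the active IKKβ mice in B2m and H2-D1. The knockout mice overlapped with the P301S and with the non-transgenic mice in each of these genes.

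**Figure D2:**
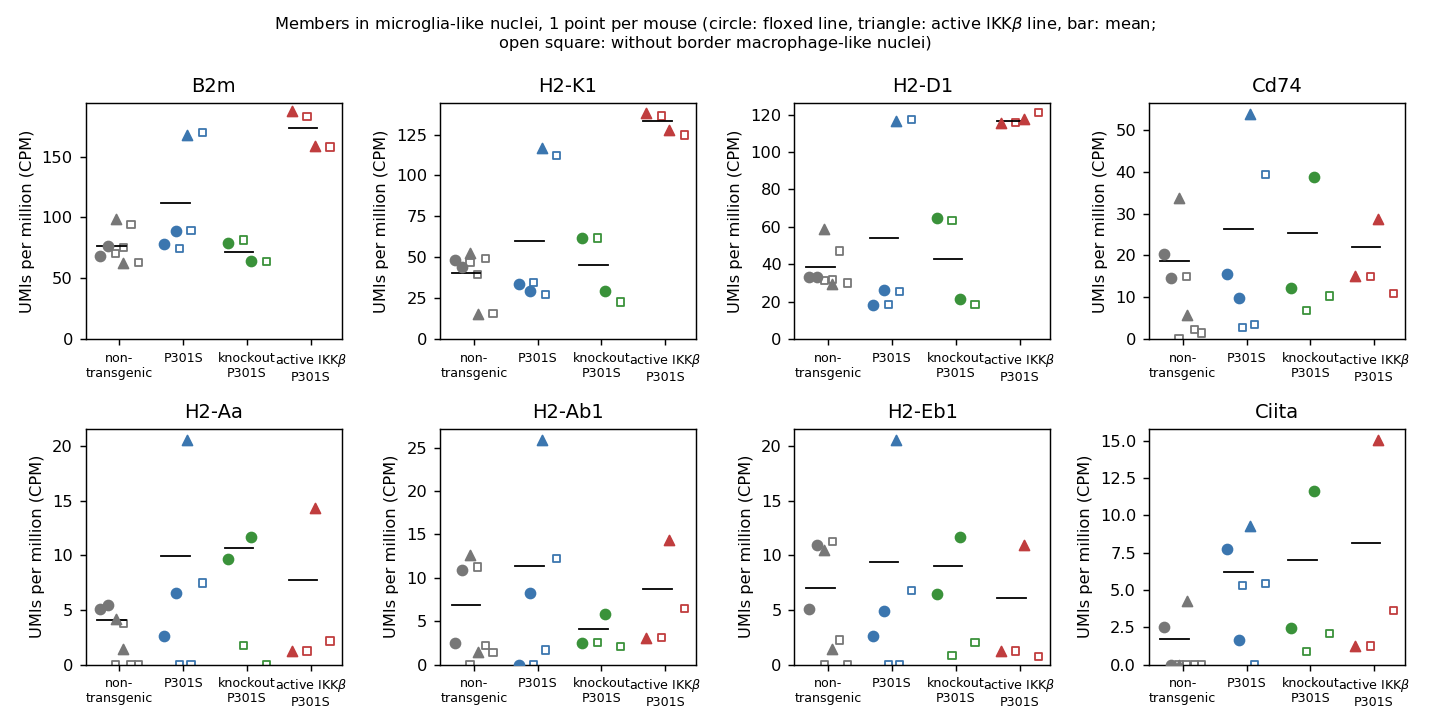
CPM of each member in microglia-like nuclei, 1 filled point per mouse (circles for the floxed line, triangles for the active IKKβ line) with the group mean as a bar, and as open squares the same mice without border macrophage-like nuclei. Both active IKKβ P301S mice lie above all non-transgenic mice in B2m, H2-K1 and H2-D1, together with P301S replicate 3, and most squares of the class II chains lie near 0.

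Against non-transgenic mice, class I rose in active IKKβ P301S mice. The log2 fold change was 1.15 ± 0.23 for B2m (SE, edgeR adjusted p = 0.00387), 1.77 ± 0.38 for H2-K1 (edgeR adjusted p = 0.00906) and 1.58 ± 0.42 for H2-D1 (edgeR adjusted p = 0.0368). Of the 8938 genes tested, 2.3% were called higher in this contrast. A call required an adjusted p under 0.05 and a log2 fold change over 0.1 in size. Cd74, the remaining member that passed the filter on low counts, differed by 0.29 ± 0.58 (edgeR adjusted p = 0.90). This contrast sets tau and active IKKβ together against neither, and both active IKKβ mice are of 1 breeding line. The active IKKβ mice also carried Cre and only 1 working copy of Cx3cr1, whereas the non-transgenic mice had no Cre. These cannot be told apart from active IKKβ here. With the line as a covariate B2m kept its call (log2 fold change 0.91, edgeR adjusted p = 0.0227), whereas H2-K1 (1.43, edgeR adjusted p = 0.0591) and H2-D1 (1.05, edgeR adjusted p = 0.161) lost theirs. That covariate was estimated in part from P301S replicate 3, the only P301S mouse of the active IKKβ line. Within the active IKKβ line alone, the 2 non-transgenic mice had 98.9 and 62.1 CPM of B2m, 52.6 and 15.5 CPM of H2-K1 and 58.9 and 29.6 CPM of H2-D1, below the 159 to 188, 128 to 138 and 116 to 118 CPM of the active IKKβ P301S mice. P301S replicate 3, the mouse of this line with tau but without active IKKβ, had 168 CPM of B2m, 117 of H2-K1 and 117 of H2-D1, within that range for B2m and H2-D1 and below it for H2-K1. With called doublets kept, none of the 3 passed (1.58 for H2-K1, edgeR adjusted p = 0.0959), and DESeq2 called only B2m. H2-D1 also lost its call without any one of non-transgenic replicates 1, 2 and 4 or active IKKβ replicates 1 and 2 (edgeR adjusted p from 0.0935 to 0.1201).

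The comparison of active IKKβ P301S mice with P301S mice asks what the active kinase adds in the presence of tau. Cre and the loss of a Cx3cr1 copy go with the active kinase in it and cannot be told apart from it. No member was called: the log2 fold changes were 0.51 ± 0.22 for B2m, 0.90 ± 0.36 for H2-K1, 0.80 ± 0.39 for H2-D1 and -0.58 ± 0.52 for Cd74 (edgeR adjusted p = 0.46, 0.37, 0.59 and 0.91). In this contrast 1.48% of all genes were called, and 783 of the 8938 had an unadjusted p under 0.05. The result turned on P301S replicate 3. Without this mouse all 3 class I genes were called higher in active IKKβ P301S mice, where 1.54% of all genes were, with log2 fold changes of 0.9985, 2.04 and 2.29 (edgeR adjusted p = 0.0117, 0.00168 and 0.000821). The 2 P301S mice that remain are of the floxed line and both active IKKβ mice of the other, so that line and genotype cannot be told apart in this comparison.

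The tau contrast, P301S against non-transgenic mice, had no member called, with 0.112% of all genes called (684 had an unadjusted p under 0.05). The log2 fold changes were 0.64 ± 0.23 for B2m, 0.87 ± 0.40 for H2-K1, 0.78 ± 0.43 for H2-D1 and 0.87 ± 0.54 for Cd74 (edgeR adjusted p = 0.43, 0.62, 0.70 and 0.75). Leaving out P301S replicate 3 gave 0.16, -0.27, -0.71 and -0.50. P301S replicate 3 was the only P301S mouse above every non-transgenic mouse in B2m, in H2-K1 and in H2-D1.

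No member was called between knockout P301S mice and either group with intact Ikbkb. In knockout P301S against P301S mice the log2 fold changes were -0.70 ± 0.26 for B2m, -0.50 ± 0.43 for H2-K1, -0.43 ± 0.46 for H2-D1 and -0.55 ± 0.59 for Cd74 (edgeR adjusted p = 0.46, 0.74, 0.79 and 0.79), and 0% of all genes were called (800 had an unadjusted p under 0.05). Leaving out P301S replicate 3 gave -0.21, 0.64, 1.06 and 0.82. Knockout P301S mice differed from non-transgenic mice by -0.06 ± 0.27, 0.37 ± 0.46, 0.34 ± 0.50 and 0.32 ± 0.65 in the same order (edgeR adjusted p from 0.96 to 0.99), and again 0% of genes were called, with 489 at an unadjusted p under 0.05. These contrasts share mice: P301S mice enter the tau, active IKKβ and knockout contrasts, and their values are therefore not independent of each other.

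**Figure D3:**
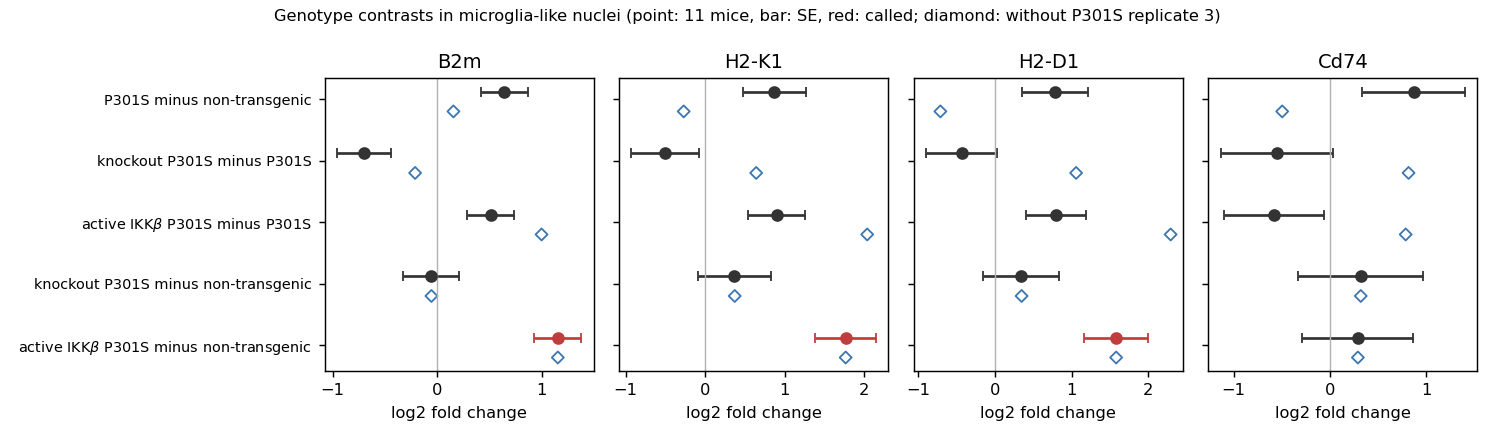
Log2 fold changes of the 4 members tested in microglia-like nuclei for 5 genotype contrasts, as points with SE bars over all 11 mice (red where called) and as open diamonds without P301S replicate 3. Only the class I genes in active IKKβ P301S minus non-transgenic mice are red, and the diamonds move away from the points in every contrast that includes the P301S mice.

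The breeding lines were compared within the non-transgenic and P301S groups, which hold mice of both. P301S replicate 3 was the only P301S mouse of the active IKKβ line, so that mouse and the line cannot be told apart there. No member was called (0.313% of all genes were), and the log2 differences, active IKKβ line minus floxed line, were 0.54 ± 0.20 for B2m, 0.75 ± 0.37 for H2-K1, 1.37 ± 0.35 for H2-D1 and 1.15 ± 0.51 for Cd74. For H2-D1 the unadjusted p was 0.000871 and the edgeR adjusted p 0.138. Among non-transgenic mice H2-K1 was at 48.1 and 43.9 CPM in the floxed line and at 52.6 and 15.5 in the other. H2-D1 was at 32.9 and 32.9 against 58.9 and 29.6. P301S mice of the floxed line had 33.7 and 29.6 CPM of H2-K1 and 18.2 and 26.3 of H2-D1. Replicate 3 had 117 of each.

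The class II chains and Ciita were too low in microglia-like nuclei for the model across genes, and were compared by their CPM per mouse, with Cd74 beside them. Cd74 stood at 20.3, 14.6, 33.7 and 5.65 CPM among non-transgenic mice, 15.6, 9.86 and 53.8 among P301S mice, 12.1 and 38.8 among knockout P301S mice, and 15.1 and 28.7 among active IKKβ P301S mice. All groups overlapped. H2-Aa stood at 5.07, 5.48, 4.21 and 1.41 CPM among non-transgenic mice, 2.59, 6.58 and 20.6 among P301S mice, 9.71 and 11.7 among knockout P301S mice, and 1.21 and 14.4 among active IKKβ P301S mice. It was the only member of this class whose knockout mice lay above every non-transgenic mouse, where 6.87% of all genes did, and the exact permutation p of 0.0667 was the smallest that 2 against 4 mice allow. H2-Ab1 ranged from 1.41 to 12.6 CPM among non-transgenic mice, 0 to 25.9 among P301S mice, 2.43 to 5.82 among knockout P301S mice and 3.03 to 14.4 among active IKKβ P301S mice. H2-Eb1 ranged from 1.41 to 10.96, 2.59 to 20.6, 6.47 to 11.7 and 1.21 to 10.95 CPM in the same order. Ciita ranged from 0 to 4.23, 1.64 to 9.30, 2.43 to 11.7 and 1.21 to 15.1 CPM. P301S replicate 3 was the highest mouse for Cd74 and all 3 class II chains, with 31 to 81 UMIs each, and active IKKβ replicate 2 was the highest for Ciita, with 22 UMIs. No exact permutation test between groups fell below p = 0.05, which only the tau contrast of 3 against 4 mice could have reached (smallest p 0.0286).

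Most of the class II signal came from a few nuclei. The 542 UMIs of the 5 class II genes lay in 166 of the 4379 microglia-like nuclei (3.79%), and the 1% of nuclei with most of them (44) held 72.3%. The 2695 class I UMIs lay in 1766 nuclei (40.3%), and the top 1% held 7.57%. Of the 38 nuclei with 5 or more class II UMIs, 25 belonged to a sub-cluster of 86 nuclei led by F13a1, Dab2, Mrc1, Mndal and Cd163, which is border-associated macrophage-like by its markers. These 86 nuclei (1.96% of the microglia-like) held 41.6% of the Cd74 UMIs, 71.8% of H2-Aa, 44.4% of H2-Ab1, 65.4% of H2-Eb1 and 50.9% of Ciita. Their Cd74 level was 508 CPM, with a 95% Poisson interval of 411 to 620, against 2.16 CPM (0.985 to 4.09) in the largest sub-cluster, which is led by Myo18b, Fcrls and Crybb1. Active IKKβ replicate 1 had 0 such nuclei and the other mice 1 to 15. The summed level of the 7 border-associated macrophage markers ranged from 11.3 to 425 CPM among non-transgenic mice, 141.5 to 238.5 among P301S mice, 212 to 221 among knockout P301S mice and 61.2 to 186 among active IKKβ P301S mice, with 1 to 5 of the 7 at 0 in a mouse.

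The nuclei of this sub-cluster and any others with 2 or more marker UMIs, 140 in all, were then left out. The number was uneven over mice: 30 nuclei in knockout replicate 1 (13 of them in the sub-cluster), 18 in active IKKβ replicate 1 (0 in the sub-cluster) and 29 in active IKKβ replicate 2 (15), but 3 to 13 in a non-transgenic mouse. In active IKKβ replicate 1, where Mrc1 gave most marker UMIs, the nuclei left out are macrophage-like only by this count of UMIs. With them left out 4239 nuclei remained and the class II levels fell in most mice. Cd74 was then at 0, 15, 2.24 and 1.43 CPM among non-transgenic mice, 2.65, 3.37 and 39.4 among P301S mice, 6.86 and 10.3 among knockout P301S mice, and 14.9 and 10.8 among active IKKβ P301S mice. H2-Aa was at 0 in 6 of the 11 mice, and at 1.25 and 2.16 CPM in the active IKKβ mice. H2-Aa no longer separated knockout P301S mice (0 and 1.71 CPM) from non-transgenic mice. Ciita was at 0 in all 4 non-transgenic mice, a count that allows up to 4.27 to 7.77 CPM in a mouse. It was at 5.30, 0 and 5.44 CPM among P301S mice, 0.857 and 2.06 among knockout P301S mice, and 1.25 and 3.60 among active IKKβ P301S mice, from at most 8 UMIs in a mouse. Of the 80 combinations of member and type, 42 were then higher in microglia and 5 lower, where 29.6% and 18.2% of all genes and types were. The 2 added were Ciita against excitatory and inhibitory neuron-like nuclei (log2 differences of -0.89 and -1.16, exact adjusted p = 0.0437 and 0.0321), and for H2-Aa none remained. Over the 10 mice with fibroblast-like nuclei, H2-Aa, H2-Ab1 and H2-Eb1 then averaged 1.51, 3.995 and 2.39 CPM in microglia. They were at 5.43, 6.29 and 3.86 CPM in fibroblast-like nuclei. Cd74 was at 9.21 and 9.07 CPM. None of these 4 differences passed the test. Class I kept its calls in active IKKβ P301S minus non-transgenic mice, with log2 fold changes of 1.15, 1.83 and 1.74.

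Microglia-like nuclei fell into 7 sub-clusters, whose class I levels, pooled over mice that supplied them unevenly, varied. Sub-cluster 1, the largest (2116 nuclei), held 79.7 CPM of B2m (95% Poisson interval 71.4 to 88.8), 39.7 of H2-K1 (33.9 to 46.3) and 40.5 of H2-D1 (34.6 to 47.0). Sub-cluster 2 (1107 nuclei, led by Ddo, Rxrg and Ttn), of which 1045 came from active IKKβ P301S mice, held 175 CPM of B2m (160.0 to 192), 128 of H2-K1 (115 to 142) and 114 of H2-D1 (101.3 to 127). Sub-cluster 3 (766 nuclei, led by Lpl, Csf1 and March3), of which 549 came from P301S mice and 467 of these from replicate 3, held 155 CPM of B2m (137 to 175), 104 of H2-K1 (88.9 to 120) and 104 of H2-D1 (89.4 to 121). Cd74 was at 39.4 CPM (30.6 to 50.1) in sub-cluster 3, with 29.0% of its UMIs, and at 12.5 CPM (8.66 to 17.5) in sub-cluster 2. In P301S replicate 3, sub-cluster 3 and the border-associated macrophage-like one held 91 UMIs each of the 5 class II genes. A small sub-cluster 6 (52 nuclei, led by Gpnmb, Myof and Atp6v0d2), 49 of them from active IKKβ mice and 39 of these from replicate 2, held 103 CPM of Cd74 (58.7 to 167) and 70.6 of Ciita (35.2 to 126). Of its UMIs of the 5 class II genes 34 came from active IKKβ replicate 2, 6 from replicate 1 and 7 from P301S replicate 3. These values pool mice and describe the nuclei, and no test was made on them.

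**Figure D4:**
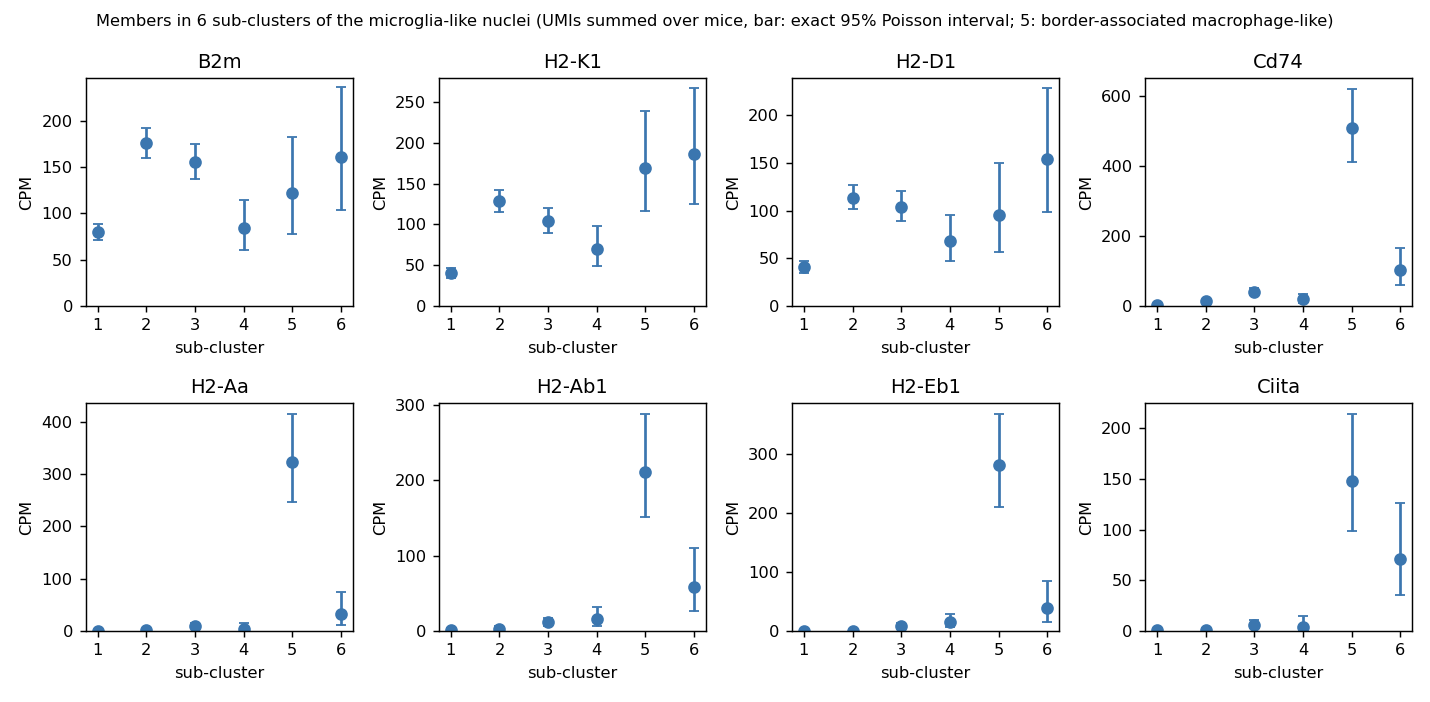
CPM of each member in 6 sub-clusters of the microglia-like nuclei, from UMIs summed over mice, with exact 95% Poisson intervals as bars. The pooled class I level is higher in sub-clusters 2 and 3, which come mostly from active IKKβ mice and P301S replicate 3, than in sub-cluster 1, while Cd74, the class II chains and Ciita peak in sub-cluster 5, the border-associated macrophage-like nuclei.

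Sub-clusters were spread unevenly over the mice. Sub-cluster 3 made up 64.6% of the microglia-like nuclei of P301S replicate 3, against 7.09% and 19.8% in the other P301S mice and 22.1% and 3.13% in the knockout P301S mice. Sub-cluster 2 made up 87.8% and 78.1% in the active IKKβ P301S mice and at most 4.62% elsewhere. Within sub-cluster 1 the summed class I level was 142, 128, 189 and 99.5 CPM among non-transgenic mice, 116, 131 and 321 among P301S mice, 171 and 100.8 among knockout P301S mice, and 391 and 419 among active IKKβ P301S mice, the last from 31 and 36 nuclei. P301S replicate 3 and both active IKKβ mice were thus above all the other mice within the same sub-cluster too. The gap between the pooled levels of sub-clusters 1 and 2 was not seen within the active IKKβ mice, which had 444 and 391 CPM in sub-cluster 2 against the 391 and 419 in sub-cluster 1. The last 2 values rest on 23 and 31 UMIs, so a smaller gap could be missed. In sub-cluster 3 the level was 193 CPM in P301S replicate 2, 427 in P301S replicate 3 and 261 in knockout replicate 1, each above the same mouse in sub-cluster 1. In the active IKKβ mice it was 322 and 413 CPM, from 25 and 31 UMIs, against the 391 and 419 CPM in sub-cluster 1. So few UMIs give no direction between the sub-clusters in these mice. The sub-cluster 3 value of P301S replicate 2 also rests on 25 UMIs.

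**Figure D5:**
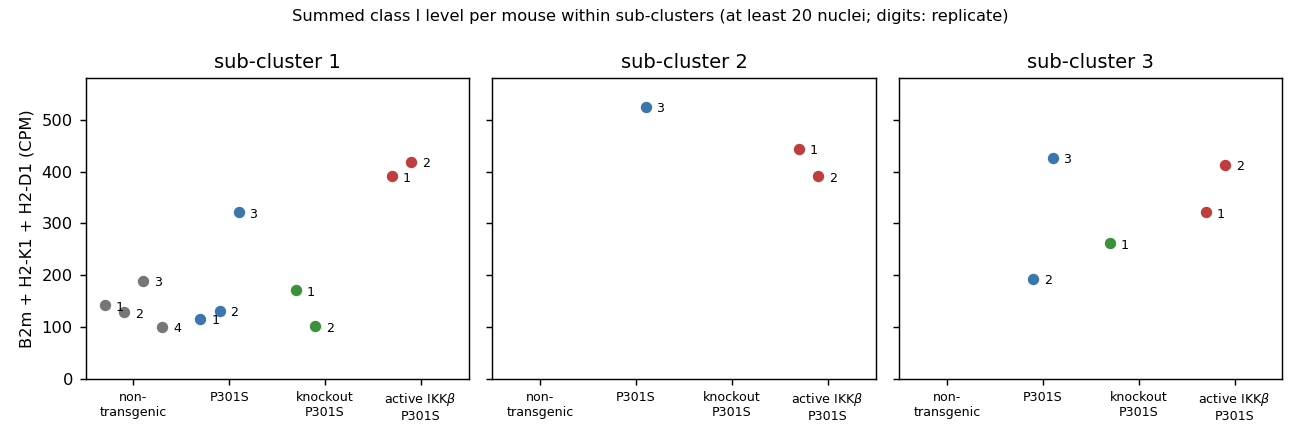
Summed CPM of B2m, H2-K1 and H2-D1 per mouse within sub-clusters 1, 2 and 3, for mice with at least 20 nuclei in the sub-cluster, with the replicate number beside each point. In sub-cluster 1 the active IKKβ mice (391 and 419 CPM) and P301S replicate 3 (321 CPM) lie above the other 8 mice (99.5 to 189 CPM).

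Markers of further immune cells were read in the microglia-like nuclei of each mouse. The 6 dendritic cell markers summed to 27.9 to 63.2 CPM among non-transgenic mice, 31.1 to 35.9 among P301S mice, 31.1 to 38.8 among knockout P301S mice, and 88.4 and 113 among active IKKβ P301S mice. Zbtb46 made up most of this in the active IKKβ mice, at 72.1 and 92.4 CPM, and was at 5.07 to 42.1 in the others, while Flt3 was at 4.93 to 15.2 CPM in every mouse and Cd209a and Ccr7 had at most 1 UMI in a mouse. T or NK cell markers summed to 2.53 to 10.3 CPM per mouse with 5 to 7 of 8 at 0, B or plasma cell markers to 0 to 5.48 CPM, and monocyte or neutrophil markers to 1.82 to 13.6 CPM. Their part in the class I differences was not tested.

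Outside microglia only the tau, knockout and active IKKβ contrasts were tested, and no member was called in them. The contrasts of knockout P301S and active IKKβ P301S mice with non-transgenic mice were not run in those types. In 8 other types that had a member with enough counts, 26 combinations of member and type were tested in each of the 3, where 0.0116%, 0.0243% and 0.00423% of all genes and types were called, and 3875, 7986 and 5029 of 94637 had an unadjusted p under 0.05. In endothelial-like and fibroblast-like nuclei the active IKKβ group was 1 mouse, assumed to vary like the other groups. The strongest value was H2-K1 in endothelial-like nuclei. Non-transgenic replicates 2 and 3 had 145 and 237 CPM, P301S replicates 1 and 2 had 277 and 380, the knockout P301S pair 96.0 and 120.0, and active IKKβ replicate 2 had 171. The log2 fold change of knockout P301S against P301S mice was -1.62 ± 0.42 (unadjusted p = 0.000395, edgeR adjusted p = 0.0690). In endothelial-like nuclei alone this contrast called 16 genes higher and 6 lower of 4374, and 467 had an unadjusted p under 0.05. The pooled share given above is thus not that of this type. H2-K1 was called in this contrast and type when the model also held the breeding line, or a block for the replicate number. How many of all genes were called in those runs is not given here. Whether H2-K1 stood out from other genes in them was not tested. Each value rests on 23 to 88 nuclei and 7 to 53 UMIs. H2-K1 also had unadjusted p-values under 0.05 in oligodendrocyte precursor-like nuclei (log2 fold change -1.58 ± 0.49, edgeR adjusted p = 0.97) and astrocyte-like nuclei (-0.93 ± 0.36, edgeR adjusted p = 0.93) of active IKKβ P301S against P301S mice, where the direction was opposite to that in microglia-like nuclei. Whether these differences differ from the one in microglia was not tested.

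Genes that work with MHC molecules were taken from 8 hand-written lists, chosen with earlier results of these data known. Of 91 listed genes 52 were tested in microglia-like nuclei, and their shares called are given as a description. In active IKKβ P301S minus non-transgenic mice 12 of the 52 rose, the 3 class I genes among them, and 0 fell, where 2.3% of all genes were called higher. With the breeding line as a covariate 5 of the 52 were called higher, with DESeq2 4, and with doublets kept 2 of 57, where 1.39%, 1.63% and 1.01% of all genes were. In thinned nuclei 9 of 42 were called higher, and without border macrophage-like nuclei 10 of 49, where 2.07% and 2.34% of all genes were. Fewer listed genes were tested in these settings, and the lost calls named below do not account for all of the drop. Leaving out 1 mouse gave 4 of 59 without active IKKβ replicate 2, 7 of 59 without active IKKβ replicate 1, 6 of 52 without non-transgenic replicate 1 and 5 of 52 without non-transgenic replicate 2, where the shares of all genes were 1.04%, 1.77%, 1.59% and 1.6%. Of the 52, 42 had a positive log2 fold change, with a median of 0.36, against -0.02 over all genes. The largest change in the transcription list was that of Nlrc5, the class I transactivator (ENSMUSG00000074151, chromosome 8, 94434356 to 94527272, mm10). It stood at 5.07, 9.14, 23.2 and 2.82 CPM among non-transgenic mice, 12.96, 14.8 and 74.4 among P301S mice, 29.9 and 13.6 among knockout P301S mice, and 56.3 and 84.9 among active IKKβ P301S mice, so that the same 3 mice were highest as for class I. Its log2 fold change in active IKKβ P301S minus non-transgenic mice was 2.84 ± 0.55 (edgeR adjusted p = 0.00327). Nfkb1, an NF-κB subunit, rose by 0.62 ± 0.16 (edgeR adjusted p = 0.0302), and Creb1, which binds the X2 box, by 0.53 ± 0.15 (edgeR adjusted p = 0.0478). In all, 3 of 13 transcription genes rose. Among the changes of processing, the Nlrc5 call was lost with DESeq2 and that of Nfkb1 with the breeding line or doublets kept. That of Creb1 was lost with DESeq2, age, the breeding line, the replicate block, doublets kept or thinned nuclei. Runs with a mouse left out are not part of this list. Only 4 of 59 listed genes were called without active IKKβ replicate 2, so these 3 calls do not all hold in such runs.

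Of 6 further class I-like chains tested, H2-Q4 rose, with a range of 1.83 to 14.7 CPM among non-transgenic mice against 41.2 and 46.5 CPM among active IKKβ P301S mice (log2 fold change 2.32 ± 0.54, edgeR adjusted p = 0.0151). H2-Q6 rose as well, with a range of 0 to 2.11 CPM against 15.7 and 17.1 CPM (3.90 ± 1.05, edgeR adjusted p = 0.0413). Neither was called with DESeq2 or with doublets kept, nor H2-Q6 with the breeding line. Runs with a mouse left out, several of which called fewer listed genes, are not part of this list for H2-Q4 and H2-Q6. Both lie in the Q region of the MHC, and both were also high in P301S replicate 3, at 43.2 and 18.6 CPM. H2-Q4 was the one listed gene called between the breeding lines (2.11 ± 0.45, edgeR adjusted p = 0.0447), where 0.313% of all genes were called. H2-Q4 was not called there with the replicate number as a block, with doublets kept, in thinned nuclei, or when any one of the non-transgenic or P301S mice was left out. Other runs called more listed genes higher: 3 of 60 and 4 of 62 without knockout replicates 1 and 2, 2 of 59 without either active IKKβ mouse, 2 of 51 without non-transgenic replicate 4 and 7 of 80 without the low-count filter, where 0.127%, 0.152%, 0.127% to 0.148%, 0.092% and 0.282% of all genes were. In the line comparison H2-Q6 (6.15 ± 1.39, edgeR adjusted p = 0.0775) and Nlrc5 (1.86 ± 0.46, edgeR adjusted p = 0.105) had the next lowest p-values. Of the 9 peptide loading genes, which include the transporter subunits Tap1 and Tap2, none (0) was called in active IKKβ P301S minus non-transgenic mice. In that contrast 7 had positive values and the median was 0.38.

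Among co-stimulatory molecules and receptors, 3 of 6 rose in active IKKβ P301S minus non-transgenic mice, against the 2.3% of all genes. Cd274, the checkpoint ligand PD-L1, rose from 14.7 ± 3.87 CPM (SD, n = 4) to 45.9 ± 5.78 CPM (n = 2), or by 1.60 ± 0.30 on the log2 scale (edgeR adjusted p = 0.00214), and was called in every alternative run. Icosl, the ligand of the T cell receptor ICOS, rose from 28.6 ± 5.28 to 63.7 ± 10.5 CPM (1.09 ± 0.23, edgeR adjusted p = 0.00782). Its call was lost with doublets kept, in thinned nuclei or without active IKKβ replicate 2. Cd80, a ligand of CD28, rose from 62.5 ± 21.0 to 118 ± 6.08 CPM (0.91 ± 0.23, edgeR adjusted p = 0.0273). This call was lost with DESeq2, with the breeding line, with doublets kept, and without either active IKKβ mouse or any one of non-transgenic replicates 2, 3 and 4. Cd80 was also the one listed gene called against P301S mice (1.32 ± 0.25, edgeR adjusted p = 0.00513), where 1.48% of all genes were called, so that 1 of 52 is near the share over all genes. The call was lost with doublets kept. With the breeding line 1 listed gene was called higher and 1 lower, without the low-count filter 6 of 80 higher and 1 lower, and without P301S replicate 3 9 of 50 higher, where 0.503%, 0.973% and 1.54% of all genes were called higher, and 0.291% and 0.691% lower in the first 2 settings. Next by p-value were Pirb (1.41 ± 0.43, edgeR adjusted p = 0.119) and Ifnar1 (0.76 ± 0.23, edgeR adjusted p = 0.123). Of 7 interferon signal genes, Ifngr2, a chain of the interferon-γ receptor, rose by 0.63 ± 0.17 in active IKKβ P301S minus non-transgenic mice (edgeR adjusted p = 0.0429). This call was lost with DESeq2, age, the breeding line, the replicate block or doublets kept. Runs with a mouse left out are not part of this list. Of 7 class II partners, 0 were called.

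No listed gene was called in the remaining contrasts under the main settings. In the tau contrast Cd83 was called with the breeding line as a covariate, in thinned nuclei, and without P301S replicate 1, either knockout mouse or either active IKKβ mouse, and Nlrc5 with the breeding line. Without the low-count filter 7 of 80 were called higher there (0.599% of all genes), and H2-Q4 lower in the knockout contrast (0.117%). The lowest adjusted p-values in the tau contrast were those of Cd83 (1.56 ± 0.34, edgeR adjusted p = 0.0975), which protects class II from degradation, Nlrc5 (2.15 ± 0.58, edgeR adjusted p = 0.189) and Cd274 (1.07 ± 0.31, edgeR adjusted p = 0.251). In the knockout contrast 5 of the 52 were positive and the median was -0.19, against -0.01 over all genes, and the lowest adjusted p-values apart from B2m were those of H2-Q4 (-2.33 ± 0.71, edgeR adjusted p = 0.352), Ctss (-0.34 ± 0.15, edgeR adjusted p = 0.519) and Cd274 (-0.74 ± 0.33, edgeR adjusted p = 0.521). In knockout P301S minus non-transgenic mice 7 genes shared the lowest edgeR adjusted p of 0.879, among them Stat2 (0.63 ± 0.27), Nlrc5 (1.33 ± 0.69) and Cd80 (-0.55 ± 0.29). H2-Ea-ps, H2-T10, H2-Bl and Ifi30 were not analysed here.

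The genes most like class I across the 11 mice were named by Pearson's correlation of their log2 CPM with the summed CPM of B2m, H2-K1 and H2-D1, as a description. They were Gm13710 (r = 0.927, Spearman's rho = 0.836), Nfkb1 (0.924 and 0.782), Il13ra1 (0.922 and 0.818), Etv6 (0.920 and 0.873) and Fyb (0.919 and 0.827). For Cd74 they were Usp7 (0.850 and 0.818), Psap (0.843 and 0.864), Ap3s1 (0.839 and 0.809), Vamp1 (0.835 and 0.873) and Rell1 (0.834 and 0.682). All points share the genotype groups, and in class I the same 3 mice, P301S replicate 3 and both active IKKβ P301S mice, were the highest.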

How the data were processed

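Nuclei were isolated from frozen cortex, sorted on DAPI and sequenced as droplet 3′ libraries, 1 per mouse. The authors deposited raw UMI counts per gene and barcode, made with Cell Ranger 3.1.0 on mm10 with unspliced transcripts counted, before any further filter. Nuclei with 300 to 8000 genes and at most 5% mitochondrial counts were kept here, and doublets were removed by simulated neighbours at 0.8% per 1000 barcodes. Clustering (scanpy 1.11.5, 2000 variable genes, 15 components, Leiden resolution 0.1, 0.3 for sub-clusters) left out the members and the antigen presentation lists. Types were named by marker lists.

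Raw counts were summed per mouse and type (at least 20 nuclei) and tested with edgeR 4.0.16 (R 4.3.3) by its quasi-likelihood test, with TMM scaling, filterByExpr by genotype, 1 dispersion trend over all 11 mice and Benjamini-Hochberg adjustment over all genes tested. Genes were called at an adjusted p under 0.05 and a log2 fold change over 0.1 in size. SE was taken from the log2 fold change and its F statistic. In microglia-like nuclei 385747 to 1651540 UMIs per mouse stood behind these sums. Members that filterByExpr left out were compared by exact permutation of mice, two-sided. Differences between types were adjusted over all genes and types, where the design had named the members alone. Steps were tested on simulated data.

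The members and lists were chosen with earlier results of these data known. All 8 members and Nlrc5 are named, and from the lists up to 10 called genes per contrast by adjusted p, with the 3 lowest where fewer than 3 were called. Creb1 and Ifngr2, beyond the first 10, were added after their values were seen. Alternatives were DESeq2 1.42.0, its size factors in edgeR, no filter on low counts, breeding line, age or replicate number as a covariate, doublets kept, nuclei thinned to 1000 UMIs, a pseudocount of 10 CPM, border macrophage-like nuclei left out, and each mouse left out. Mice with the same number in their titles correlated in their deviations from the group means at -0.094 to 0.134 over 9359 genes, against -0.134 to 0.094 for other numbers, so the numbers were not taken as pairs. Separate mice are the replicates.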

Additional observations from a re-analysis of the deposited data

Results flagged for a closer look

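The difference between P301S and non-transgenic mice was larger in the active IKKβ line than in the floxed line for H2-K1, by 2.41 ± 0.59 on the log2 scale (SE, edgeR unadjusted p = 0.000419, adjusted p = 0.299), and for H2-D1, by 1.94 ± 0.62 (edgeR unadjusted p = 0.00452, adjusted p = 0.391). B2m (0.86 ± 0.37, edgeR adjusted p = 0.537) and Cd74 (2.06 ± 0.97, edgeR adjusted p = 0.606) had the same sign. None of the 4 passed after adjustment, and 0 of the 8938 genes tested were called. The active IKKβ line holds 1 P301S mouse, replicate 3, so the line and that mouse cannot be told apart. The spread behind these SE and p-values comes from the other mice, and replicate 3 was assumed to vary like them.

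H2-Eb1 in microglia-like nuclei was higher with tau in the active IKKβ line and lower with tau in the floxed line, and the 2 differences lay 18.87 CPM apart. This difference was not tested, and rests on the same mouse.

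Among the non-transgenic mice, H2-D1 in replicate 3 (58.9 CPM) lay far above the others (29.6 to 32.9 CPM). Its gap to the nearest was 0.887 of the range of the group. Chance flags about 1 in 20 such groups.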

How the results depend on the processing

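Of the values recomputed under another setting, 153 kept their side of the threshold and direction, 4 gained a call, 7 lost one and 11 turned. With a mouse left out these were 196, 3, 5 and 16. In active IKKβ P301S minus non-transgenic mice 3 members were called, against 1 with DESeq2, 1 with the breeding line as a covariate, 0 with doublets kept, and 2 to 3 with a mouse left out. Without the filter on low counts, 2 were called in P301S minus non-transgenic mice, 2 in active IKKβ P301S minus P301S mice, 1 in other cell types in P301S minus non-transgenic mice and 1 between the lines, where 0.701%, 1.66%, 0.567% and 0.545% of all genes were called. In other cell types, knockout P301S minus P301S, 1 was called with the breeding line and 1 with the replicate block, and 0 to 1 with a mouse left out. The shares of all genes called in these runs are not given here. The replicate block changed no other of these counts of members, while the listed genes called went from 1 to 0 between the lines and from 12 to 10 in active IKKβ P301S minus non-transgenic mice. With a mouse left out, 0 to 3 members were called in active IKKβ P301S minus P301S mice (3 without P301S replicate 3, where 1.54% of all genes were called higher). Between the lines 0 to 1 were called (1 without non-transgenic replicate 4 or knockout replicate 2, where 0.092% and 0.152% of all genes were called higher). Of the combinations with another type 50 to 60 were called, against 59. Over all genes and types, 42936 to 46412 were then higher and 26351 to 27828 lower, of 160116 to 160455. Antigen presentation genes called over 5 contrasts numbered 13, but 9 with the breeding line, 5 with DESeq2, 31 without the filter, 2 with doublets kept, and 6 to 20 with a mouse left out (7 without non-transgenic replicate 1, 6 without non-transgenic replicate 2 or active IKKβ replicate 2, 20 without P301S replicate 3). Most were from active IKKβ P301S minus non-transgenic mice. There 2.3% of all genes were called higher, against 1.39%, 1.63%, 1.85% and 1.01% in the 4 settings named. Without non-transgenic replicates 1 and 2, active IKKβ replicate 2 and P301S replicate 3 it was 1.59%, 1.6%, 1.04% and 2.73%.

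None of the log2 fold changes that turned was called. With doublets kept, Cd74 was at -0.14 in P301S minus non-transgenic, -0.74 in knockout P301S minus non-transgenic and -0.82 in active IKKβ P301S minus non-transgenic mice. With age in the model, knockout P301S minus P301S gave 0.45 for H2-K1, 0.64 for H2-D1 and 0.83 for Cd74, and knockout P301S minus non-transgenic 0.61 for B2m. With the breeding line, the first gave 0.44 for H2-D1 and 0.17 for Cd74, the second 0.24 for B2m, and active IKKβ P301S minus non-transgenic -0.17 for Cd74. With a mouse left out, P301S minus non-transgenic ranged from -0.27 to 1.17 for H2-K1, -0.71 to 1.08 for H2-D1 and -0.50 to 1.35 for Cd74. Knockout P301S minus P301S ranged from -1.27 to 0.64, -1.63 to 1.06 and -1.38 to 0.82 for the same genes, and active IKKβ P301S minus P301S from -1.10 to 0.79 for Cd74. Knockout P301S minus non-transgenic ranged from -0.27 to 0.083 for B2m, -0.41 to 0.69 for H2-K1, -0.85 to 0.77 for H2-D1 and -0.51 to 1.14 for Cd74, and active IKKβ P301S minus non-transgenic from -0.23 to 0.77 for Cd74. The causes were not tested. Class II levels rest on 0 to 81 UMIs per member and mouse.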
